A study of Rattus norvegicus with 6 samples.

Results

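The nuclear-encoded subunits of respiratory complexes II to V, with cytochrome c, were examined in cultured rat heart muscle cells given isoproterenol. Members were all rows of the deposited mRNA table whose RefSeq transcript is a succinate dehydrogenase subunit (Sdha to Sdhd), a Uqcr gene, Cyc1, Cycs, a cytochrome oxidase subunit of the Cox4 to Cox8 families, or an ATP synthase gene with a symbol starting Atp5. That gave 45 genes on 46 of the 20734 rows (20032 genes in all): 4 of complex II, 10 of complex III with cytochrome c, 16 of complex IV and 15 of complex V. The choice used gene names and no measured value. The isoproterenol group was 3 cultures of ventricular cardiomyocytes kept with 10 µM isoproterenol for 24 h. The control group was 3 untreated cultures. Both groups were primary cells of Sprague-Dawley pups 1 to 3 days old, which had been depleted of fibroblasts by letting these attach to uncoated flasks, and were kept in serum-free medium before the 24 h. Isoproterenol is a synthetic catecholamine that activates beta-adrenergic receptors, and the series' design text calls the treated cells hypertrophic. The labels also speak of passaged and transfected cells, do not give the sex of the rats, and do not say whether wells or litters were pooled. The p-values therefore measure the spread between these 6 samples, which may be in part technical.

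The respiratory chain sits in the inner mitochondrial membrane. Complex II passes electrons from succinate to ubiquinone, complex III passes them on to cytochrome c, and complex IV, cytochrome c oxidase, hands them to oxygen. The proton gradient built by complexes I, III and IV drives complex V, the ATP synthase. Heart muscle is among the tissues richest in these proteins, and several subunits of complex IV exist there as a muscle isoform beside a ubiquitous one. Part of complexes III, IV and V is made from mitochondrial DNA, which the chosen genes do not include.

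RNA was measured on one-colour Agilent arrays, one array for each sample. Signals are given as log2 of the processed intensity minus the 75th percentile of that array, so that a value of 1 is a doubling relative to the array's own scale, and a difference between groups is a log2 change. The arrays came from 2 scan images, taken here as 2 slides. Slide 1 held isoproterenol replicate 1 and all 3 controls, and slide 2 held isoproterenol replicates 2 and 3. Of the mRNA probes, 99.8% were well above background on isoproterenol replicate 1, but 61.3% and 70.9% on isoproterenol replicates 2 and 3, against 97.7% to 99.6% on the controls. The median signal of negative control spots was 30, 87 and 84 on isoproterenol replicates 1 to 3 and 27 to 28 on the controls. Slide therefore goes partly with treatment, and results are given both over all 6 arrays and within slide 1, where a single isoproterenol array is set against 3 controls. Within slide 1 the spread behind the p-value comes from the 3 controls alone, and the lone isoproterenol array is assumed to vary like them. Fitting the slide as a block gives the same change, with spread also from the pair of isoproterenol arrays on slide 2. Of the 45 member genes, 43 were well above background on all 6 arrays and none lacked a value. Uqcrq was not well above background on isoproterenol replicates 2 and 3, nor Cox8c on isoproterenol replicate 2. The limma test over 19931 genes, with Benjamini-Hochberg adjustment and a threshold of 0.05, is the test meant below wherever a gene is said to have passed.

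Over all 6 arrays 1 of the 45 subunit genes passed the test, and it fell: Cox8b, the heart and skeletal muscle isoform of cytochrome oxidase subunit 8. None rose. Of all genes tested, 5.96% fell and 10.2% rose, 16.2% in either direction. The median change of the 45 genes was 0.12, against 0.07 for all genes, and 37 of them lay within 0.5 of 0 in either direction. By sign, 30 were higher and 15 lower in isoproterenol cells. Isoproterenol and control values did not overlap in 10 of the 45 genes, against 41.4% of all genes: all isoproterenol arrays were below the controls in 8 (15.8% of all genes) and above them in 2 (25.6%). With an unadjusted p, 5 subunit genes lay under 0.05.

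**Figure D1:**
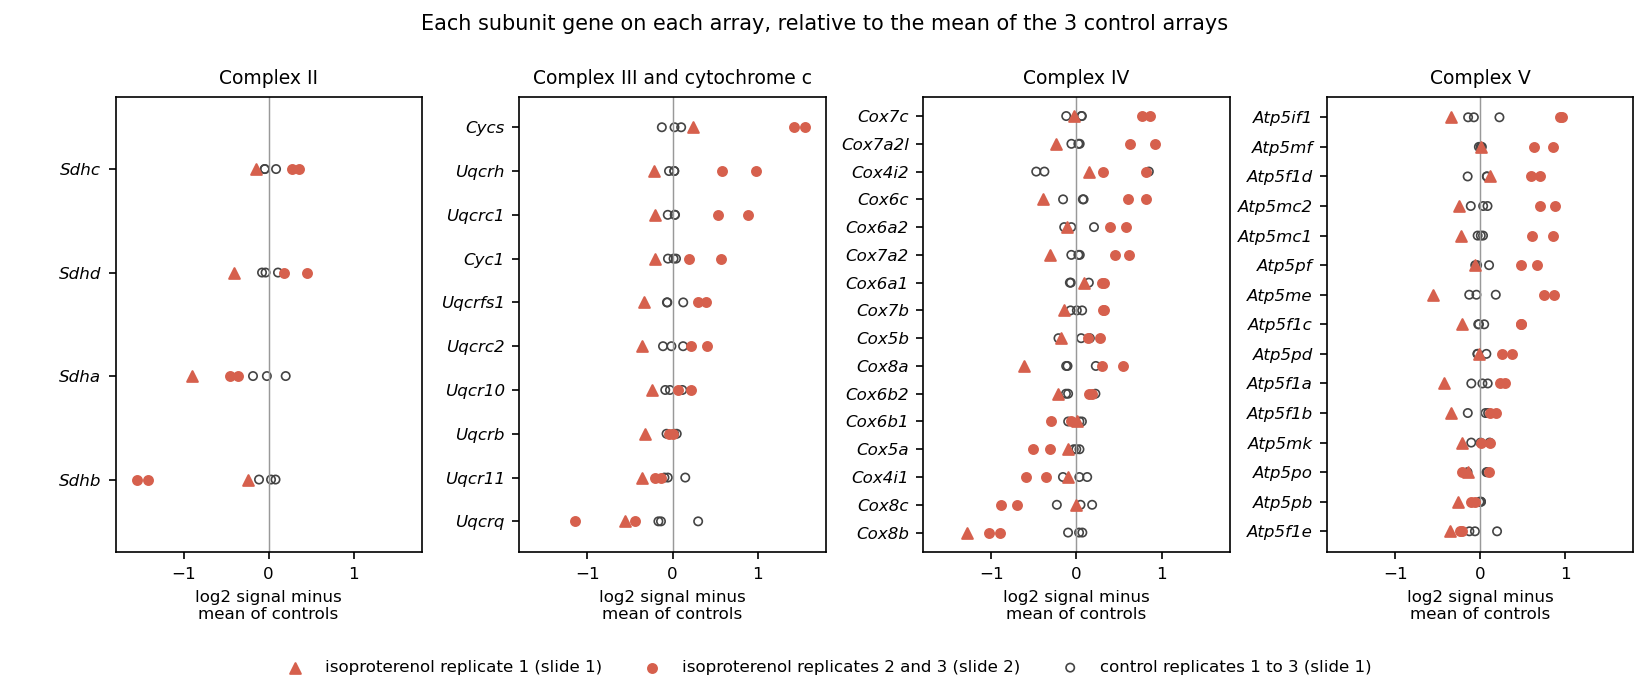
Each subunit gene in rows, grouped by complex, with its log2 signal on each array minus the mean of the 3 control arrays on the x axis. Red triangles are isoproterenol replicate 1, red circles isoproterenol replicates 2 and 3, open circles the controls. In 20 genes the triangle lies left of all controls and both red circles right of them, while Cox8b, Sdha and Sdhb have all 3 red symbols left of the controls.

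The 3 isoproterenol arrays did not agree among themselves on these genes. The array median of the 45 differences from the control mean was −0.22 on isoproterenol replicate 1, 0.37 on replicate 2 and 0.25 on replicate 3, and lay between −0.06 and 0.03 on the control arrays. For all genes the same medians were 0.11, 0.11 and 0.06 on the isoproterenol arrays. Isoproterenol replicate 1 lay below all 3 controls in 32 of the 45 genes, against 29.7% of all genes, and above all 3 in 2 (Cycs and Atp5f1d), against 45.6%. Isoproterenol replicates 2 and 3 both lay above all controls in 27 of the 45, against 39.2% of all genes, and both below them in 10, against 31.6%. In 20 of the 45 the 2 slides pointed opposite ways, with replicate 1 below and replicates 2 and 3 above every control. The share for all genes was 5.39%. The split was not confined to complexes II to V. Some complex I subunits, among them Ndufa1, Ndufa5 and Ndufc2, showed it, and others, such as Ndufa9, did not. It was not counted there. The slides differ in background and signal range as given above, and the part of that in this split was not tested.

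Within slide 1, 39 of the 45 genes were lower in isoproterenol cells and 6 higher, with a median of −0.22 where that of all genes was 0.11. Cox8b fell and no other subunit gene passed in that test of 1 array against 3, which shares its arrays with the test over all 6; 2.76% of all genes fell and 2.53% rose in that comparison, and 3.64% fell with the slide as a block. Quantile normalization, which gives every array the same distribution of values and which the deposited table follows closely on slide 1, also turned the sign over all 6 arrays: 38 of the 45 were lower and 7 higher, with a median of −0.27 beside −0.08 for all genes. On that scale the array medians were −0.37, −0.17 and −0.16 on isoproterenol replicates 1 to 3, so all 3 lay below the controls, which spanned −0.03 to 0.03. There 5 genes fell (Cox8b, Sdha, Uqcr11, Atp5f1e and Atp5pb), against 5.99% of all genes, and none rose, against 7.59%. All isoproterenol arrays were below all controls in 20 of the 45 on that scale, against 19.9% of all genes. Cycs alone was above all controls on every isoproterenol array, for which no share of all genes was taken. With quantile normalization within slide 1, a setting chosen after seeing the data, the median was −0.37 and 2 genes fell, Cox8b and Sdha, against 4.08% of all genes. Quantile normalization with the slide as a block, also chosen after seeing the data, called the same 2, against 2.95%. The direction for the group as a whole thus depended on the scaling and on the slide. The changes of 12 genes kept 1 sign in all 19 alternative settings, those of the other 33 did not.

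**Figure D2:**
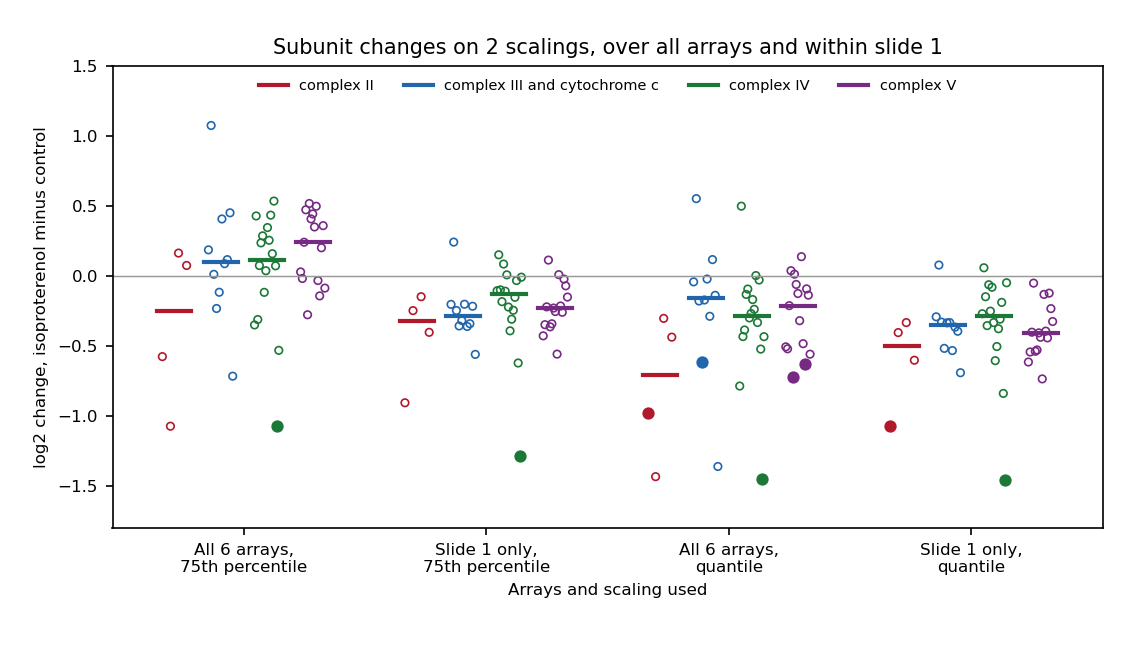
The log2 change (isoproterenol minus control) of each subunit gene on the y axis, for all 6 arrays and for slide 1 alone, each on the 75th-percentile scale and after quantile normalization. Colours mark the complexes, bars their medians, and filled points genes that passed the test. The complex V median is 0.24 in the first setting and below 0 in the other settings, while the filled Cox8b point stays between −1.07 and −1.46.

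Complex IV held the gene that fell. Cox8b read 4.35, 4.74 and 4.61 on the isoproterenol arrays and 5.54, 5.71 and 5.67 on the controls. Every isoproterenol array, of either slide, read lower than every control (all on slide 1), by far more than the spread within either group. Its mean was 4.57 ± 0.20 in isoproterenol cells and 5.64 ± 0.09 in controls (SD, n = 3 each), 0.476 of the control signal. The log2 change was −1.07 ± 0.18 (SE), with a limma adjusted p of 0.0126. Within slide 1 it was −1.28 (limma adjusted p = 0.0333) and after quantile normalization −1.45 (limma adjusted p = 0.00616). It passed in 16 of 19 alternative settings and missed the threshold in the other 3, each of which leaves out an array: −1.04 without control replicate 2 (limma adjusted p = 0.0727), −1.05 without control replicate 3 (0.0752) and −1.09 without isoproterenol replicate 3 (0.0511). Of all genes 1.11%, 0.818% and 1.92% fell in those 3 settings.

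Cox8a is the ubiquitous isoform of the same subunit, the smallest of complex IV. It read 6.90, 8.06 and 7.81 on the isoproterenol arrays and 7.40, 7.41 and 7.75 on the controls. Isoproterenol replicate 1 was the lowest of the 6 and the other two the highest. The change was 0.07 ± 0.32 (SE, limma adjusted p = 0.886), but −0.62 within slide 1 (0.139). Its change was negative in 10 of 19 alternative settings, among them quantile normalization over all 6 arrays (−0.52). To show the promoters of both isoforms beside that of another muscle isoform, 250 bases upstream of the annotated starts of Cox8b, Cox8a and Cox6a2 (the muscle isoform of subunit 6a) follow, from RefSeq on build GRCr8. They lie at chr1:205408274-205408523, chr1:213833624-213833873 and chr1:192219717-192219966, all on the minus strand, and are written 5′ to 3′. Capitals mark matches, on either strand, to a TATA box (TATAAA), a Mef2 site (the capitals in the Cox6a2 window), an Ets core (CCGGAAG) and a cAMP response element (TGACGTCA).
Cox8b: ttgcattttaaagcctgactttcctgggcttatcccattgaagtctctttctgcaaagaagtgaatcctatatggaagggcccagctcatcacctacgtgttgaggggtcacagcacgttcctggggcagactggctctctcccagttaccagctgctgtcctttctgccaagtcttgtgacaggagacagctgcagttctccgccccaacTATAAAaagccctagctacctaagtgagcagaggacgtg
Cox8a: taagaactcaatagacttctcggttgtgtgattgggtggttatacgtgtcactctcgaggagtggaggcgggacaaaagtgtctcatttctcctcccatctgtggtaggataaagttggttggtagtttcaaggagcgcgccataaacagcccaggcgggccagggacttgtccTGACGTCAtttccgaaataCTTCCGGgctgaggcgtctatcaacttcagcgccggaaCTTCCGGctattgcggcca
Cox6a2: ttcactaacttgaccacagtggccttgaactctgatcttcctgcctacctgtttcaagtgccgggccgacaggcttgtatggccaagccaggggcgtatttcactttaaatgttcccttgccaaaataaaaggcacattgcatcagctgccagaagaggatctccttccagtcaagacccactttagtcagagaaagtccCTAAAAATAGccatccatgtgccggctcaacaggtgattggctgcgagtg

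The Cox8b window held a TATAAA that begins 39 bases before the start, a match found in 12.9% of the 33469 rat promoters of that table and in 3 of the 38 subunit promoters it lists (Cox8b, Uqcr10 and Atp5mk). The Cox8a window held none of these, but a TGACGTCA (in 1.59% of promoters) and 2 CCGGAAG matches, which 7.27% of promoters and 12 of the 38 subunit promoters have. Among the 38, only Cox6a2 had the Mef2 site, whose letters 0.114% of promoters hold, and only Cox8a a TGACGTCA. The Nrf1 motif GCATGCGC was in 7 of the 38 (Sdhb, Uqcrc1, Cycs, Cox8c, Atp5mc2, Atp5me and Atp5po) and in 2.2% of all promoters. The shorter TGACGT, which every TGACGTCA contains, was in 6 of the 38 and 6.95% of all. The E-box CANNTG was in 24 of the 38 and 65.5% of all, 2 of its matches in the Cox8b window, and is not capitalised. These are matches of letters and do not show that a factor binds.

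The log2 ratio of Cox8b to Cox8a within an array does not depend on the scaling by a percentile. It was −2.55, −3.33 and −3.20 on the isoproterenol arrays and −1.86, −1.71 and −2.08 on the controls, lower on every isoproterenol array. The difference was −1.14, with a two-sided exact permutation p of 0.1, the smallest that 3 against 3 arrays allow, and 0.3 after adjustment over the 3 isoform pairs computed. Within slide 1 it was −0.66 and after quantile normalization −0.93. As a ratio it shows unequal change of the isoforms only. For Cox6a2 over Cox6a1, the ubiquitous isoform, the ratio was −0.10, 0.35 and 0.18 on isoproterenol arrays and 0.15, 0.01 and 0.11 on controls, which overlap (difference 0.05, exact permutation p = 0.8). Cox6a2 itself read 4.54, 5.23 and 5.04 on the isoproterenol arrays and 4.85, 4.50 and 4.59 on the controls, and Cox6a1 read 4.64, 4.88 and 4.86 against 4.70, 4.49 and 4.48. Neither gene passed, with changes of 0.29 and 0.24, of which the first was −0.11 within slide 1 and the second −0.13 after quantile normalization. So of the 2 muscle isoforms measured, 1 fell and 1 did not pass. Cox7a1, the third muscle isoform, was not analysed here.

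**Figure D3:**
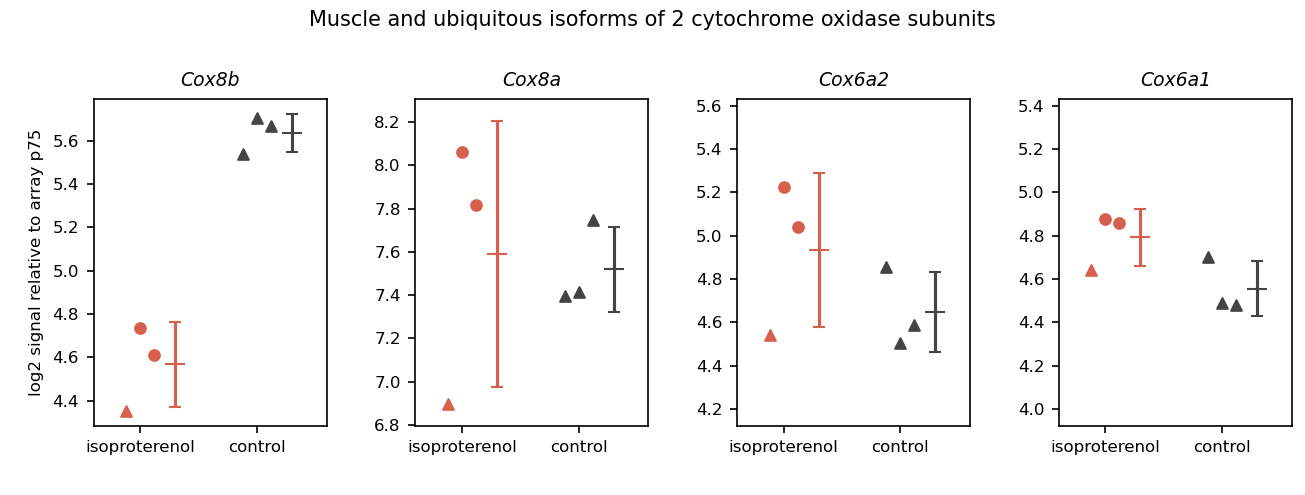
Log2 signal relative to the array's 75th percentile (y axis, the same span in each panel) for 2 muscle isoforms and their ubiquitous partners, isoproterenol left and control right. Triangles are slide 1 arrays, circles slide 2 arrays, and bars the mean ± SD of 3 arrays. Cox8b is below all controls on all 3 isoproterenol arrays, while Cox8a, Cox6a2 and Cox6a1 overlap.

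Cox4i1 is the ubiquitous form of subunit 4, the subunit through which ATP regulates the enzyme, and Cox4i2 is a form known mainly from lung and from low oxygen. Cox4i1 read 6.68, 6.43 and 6.19 in isoproterenol cells and 6.91, 6.62 and 6.82 in controls. The groups overlap, and the change of −0.35 ± 0.19 (SE) did not pass (limma adjusted p = 0.232). Cox4i2 was dim, at −2.86, −2.19 and −2.70 in isoproterenol cells against −3.49, −2.16 and −3.39 in controls, and one control exceeded every isoproterenol array. Their ratio differed by 0.78 (exact permutation p = 0.3). Cox7a2, the ubiquitous form of subunit 7a, read 6.66, 7.58 and 7.42 in isoproterenol cells and 6.90, 7.0 and 6.99 in controls, with replicate 1 below and the other two above every control. Its change of 0.26 over all arrays was −0.31 within slide 1. Cox7c, a small structural subunit and the complex IV gene with the most positive change (0.54 ± 0.27, SE, limma adjusted p = 0.194), read 7.24, 8.14 and 8.04 against 7.33, 7.15 and 7.33. Within slide 1 its change was −0.03.

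The other complex IV genes ranged from −0.53 for Cox8c, a form known from testis, to 0.43 for Cox7a2l, which joins complexes III and IV into supercomplexes, and none passed. The median over the 16 was 0.12 over all arrays and −0.13 within slide 1, where 13 of 16 were lower. Cox5a, which binds thyroid hormone metabolites in the assembled enzyme, was lower on all 3 isoproterenol arrays (1.50, 1.09 and 1.29, against 1.6, 1.57 and 1.64) but did not pass, at −0.31 ± 0.18 (SE, limma adjusted p = 0.239). Of 2 related proteins outside the rule, Ndufa4, now counted as a subunit of complex IV, read −1.52, −0.52 and −0.67 against −1.62, −1.72 and −1.49, a change of 0.71 that did not pass (limma adjusted p = 0.127). Its paralogue Ndufa4l2, known as a target of hypoxia-inducible factor, read −1.50, −4.21 and −4.04 against −1.29, −1.47 and −1.05. It was well above background on 1 isoproterenol array only, and the change of −1.98 did not pass (0.0911) and was −0.23 within slide 1.

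Complex II, the only one whose subunits are all nuclear, had no gene past the threshold over all arrays and a median change of −0.25. Sdha, the flavoprotein that oxidises succinate, is described in full after its values were seen. It read 4.70, 5.15 and 5.25 in isoproterenol cells and 5.43, 5.59 and 5.81 in controls, lower on every isoproterenol array. The change was −0.58 ± 0.21 (SE, limma adjusted p = 0.104). Within slide 1 it was −0.91 (0.0733), and it fell after quantile normalization (−0.98, 0.0173), in the deposited table's values (−0.98, 0.0158) and after normexp background correction (−0.74, 0.0197), where 5.99%, 6.53% and 3.76% of all genes fell, and also with scaling over probes that every array detected (−0.82), where 9.95% fell. Over 19 alternative settings its change stayed between −1.07 and −0.41 and it passed in 6.

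Sdhb, the iron-sulfur subunit that carries electrons on from Sdha, read 5.15, 3.97 and 3.84 in isoproterenol cells and 5.42, 5.48 and 5.28 in controls. All isoproterenol arrays were lower, but slide 2 by far more than slide 1. The change of −1.07 ± 0.35 (SE) was as large as that of Cox8b and did not pass (limma adjusted p = 0.079), with an SD of 0.72 over the isoproterenol arrays against 0.10 over the controls. Within slide 1 it was −0.25 (0.349). It passed among genes well above background on all 6 arrays (0.0398), where 9.51% of genes fell, and without isoproterenol replicate 1 (0.00112), where 22.7% fell. Sdhc and Sdhd anchor the complex in the membrane. Sdhc read 6.62, 7.12 and 7.04 against 6.85, 6.72 and 6.72, a change of 0.16 that was −0.15 within slide 1, and Sdhd changed by 0.08 (−0.40 within slide 1), neither passing. On isoproterenol replicate 1 all 4 genes lay below all 3 controls, as did 32 of the 45 members and 29.7% of all genes. After quantile normalization all 4 did so on all 3 isoproterenol arrays, against 19.9% of all genes. So did 20 of the 45 members, with 2 of 10 in complex III with cytochrome c, 7 of 16 in complex IV and 7 of 15 in complex V.

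**Figure D4:**
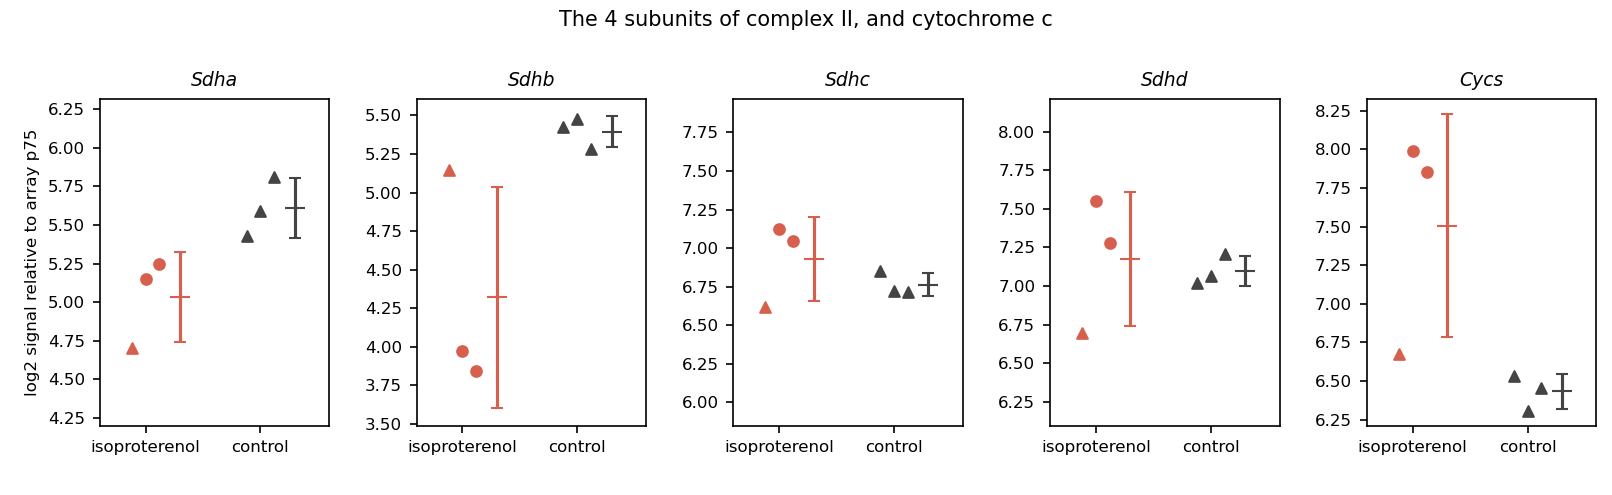
Log2 signal relative to the array's 75th percentile (y axis, the same span in each panel) of the complex II subunits and cytochrome c, isoproterenol left and control right. Triangles are slide 1 arrays, circles slide 2 arrays, and bars the mean ± SD of 3 arrays. Sdha is lower on all 3 isoproterenol arrays, and Sdhb and Cycs stand far from the controls only on the 2 slide 2 arrays.

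Cycs encodes the cytochrome c of somatic cells, which shuttles electrons from complex III to complex IV and triggers caspase activation when it leaves the mitochondrion. It read 6.67, 7.99 and 7.86 in isoproterenol cells and 6.53, 6.31 and 6.46 in controls. Every isoproterenol array was higher, slide 1 by little and slide 2 by much. The change of 1.07 ± 0.35 (SE) was the most positive of the 45 and did not pass (limma adjusted p = 0.0801). Within slide 1 it was 0.24 (0.371) and after quantile normalization 0.55 (0.157). It passed when only genes well above background on all 6 arrays were tested (0.0408), of which 25% rose, and without isoproterenol replicate 1 (1.49, 0.00119), where 29.4% rose and treatment and slide cannot be told apart.

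The 9 genes of complex III proper had no member past the threshold. Uqcrq, a small accessory subunit, had the most negative change, at −0.72 ± 0.25 (SE, limma adjusted p = 0.0914), with −4.84, −4.73 and −5.43 in isoproterenol cells and −4.42, −4.45 and −3.98 in controls. These are among the dimmest values of the set and not well above background on slide 2, and normexp background correction turned the change to 0.54. Uqcrh, the hinge protein that bridges cytochrome c1 and cytochrome c, and Uqcrc1, a core protein, had changes of 0.45 and 0.41, each with replicate 1 below and replicates 2 and 3 above every control. Within slide 1 both were negative, at −0.22 and −0.20. The same split was seen in Cyc1, the cytochrome c1 itself, in Uqcrc2, the other core protein, and in Uqcrfs1, the Rieske iron-sulfur protein, with changes of 0.19, 0.09 and 0.12. Uqcr11, a small subunit with 2 rows, was lower on all 3 isoproterenol arrays, at −0.23 by its brighter probe and −0.24 by the other. The median of the 10 genes of complex III with cytochrome c was 0.10 over all arrays and −0.28 within slide 1, where 9 of 10 were lower.

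Complex V had the highest median, 0.24 over 15 genes, and no gene past the threshold. Within slide 1 the median was −0.23, and 13 of 15 genes were lower. In the catalytic F1 head, Atp5f1a and Atp5f1b, the alpha and beta subunits that make ATP, had changes of 0.03 and −0.02, and Atp5f1c, the rotating gamma subunit, 0.24. Atp5f1d, the delta subunit, was higher on all 3 isoproterenol arrays (6.34, 6.93 and 6.82, against 6.30, 6.07 and 6.30) at 0.47 ± 0.21 (SE, limma adjusted p = 0.157). Atp5f1e, the epsilon subunit, was lower on all 3, at 6.22, 6.33 and 6.36 against 6.51, 6.45 and 6.77. Its change of −0.28 ± 0.17 (SE) was the most negative of the complex and did not pass (limma adjusted p = 0.274). After quantile normalization it fell, at −0.72 (0.0409).

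Atp5if1, the inhibitor that stops the synthase from running backwards and burning ATP, had the most positive change in complex V. It read 6.42, 7.70 and 7.73 in isoproterenol cells and 6.62, 6.69 and 6.99 in controls, below all controls on slide 1 and above all on slide 2. The change of 0.52 ± 0.37 (SE) did not pass (limma adjusted p = 0.339) and was −0.34 within slide 1. The c-ring genes Atp5mc1 and Atp5mc2, whose products turn as protons pass, had changes of 0.41 and 0.44 and the same split. In the peripheral stalk, which holds the head still, Atp5pb was lower on all 3 isoproterenol arrays (−0.14), Atp5po was at −0.09, Atp5pd at 0.20 and Atp5pf at 0.36. Of the membrane subunits at the dimer interface, Atp5me was at 0.35, Atp5mf at 0.50 and Atp5mk at −0.03.

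Of 40 assembly factors listed, 31 were measured. Higd1a, Uqcc2 and Fastkd2 rose and Lyrm7 and Atpaf1 fell, 3 and 2 of 31, where 10.2% and 5.96% of all genes rose and fell. The median change was 0.24 over all arrays and −0.0035 within slide 1, where 1 rose and 2 fell. Without isoproterenol replicate 1, 13 rose and 5 fell (29.4% and 22.7% of all genes), and without any other single array 1 rose and 0 to 2 fell. Higd1a, a hypoxia-inducible protein that binds complex IV, read 3.65, 4.23 and 4.39 in isoproterenol cells and 2.30, 2.15 and 2.13 in controls, higher on every isoproterenol array. Its change was 1.90 ± 0.23 (SE, limma adjusted p = 0.00607), and 1.46 within slide 1 (0.0321), and it passed in all 19 alternative settings. Lyrm7, the chaperone that holds the Rieske protein before its insertion into complex III, read −2.86, −2.29 and −2.44 against −1.16, −1.34 and −1.19, a change of −1.30 (limma adjusted p = 0.011) and of −1.63 within slide 1 (0.0292). Atpaf1, the chaperone of the F1 beta subunit, read −1.69, −1.94 and −2.0 against −0.76, −0.82 and −0.81, a change of −1.08 (limma adjusted p = 0.0106) and of −0.89 within slide 1 (0.0462). Both were less reduced after normexp background correction, at −0.57 and −0.51, where neither passed. Without control replicate 2 or 3 neither passed, nor did Atpaf1 without isoproterenol replicate 3.

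Uqcc2, needed for synthesis of cytochrome b, and Fastkd2, a mitochondrial RNA-binding protein, rose by 0.91 and 0.84 (limma adjusted p = 0.0242 and 0.0248). Within slide 1 they were at 0.72 and 0.62 and did not pass. Each passed in 9 of 19 alternative settings, and neither did so without any one control, without isoproterenol replicate 2 or without isoproterenol replicate 3. Surf1, which helps to assemble the core of complex IV, read 3.14, 3.44 and 3.39 in isoproterenol cells and 4.02, 4.02 and 3.83 in controls, and at −0.63 it just missed the threshold (limma adjusted p = 0.0502). It passed in 10 of 19 alternative settings, among them quantile normalization (−0.93, limma adjusted p = 0.0144) and normexp background correction (−0.82, 0.012). In these settings 5.99% and 3.76% of all genes fell. It missed the threshold in the others, among them median scaling and those without any one control. Surf1 is named after its values were seen. The other 25 assembly factors did not pass.

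Of 21 regulators of mitochondrial biogenesis listed, 18 were measured, of which 2 rose and 5 fell, beside 10.2% and 5.96% of all genes. The median change was −0.29 over all arrays and −0.11 within slide 1, where none rose and 1 fell. Ppargc1a, the coactivator PGC-1alpha that drives transcription of many respiratory genes, read −1.97, −1.71 and −1.64 in isoproterenol cells and 0.03, 0.24 and 0.31 in controls. It was lower on every isoproterenol array, of either slide, than on the controls, which were all on slide 1. The change was −1.97 ± 0.18 (SE, limma adjusted p = 0.00301), and −2.16 within slide 1 (0.027), and it passed in all 19 alternative settings. Perm1, a muscle regulator downstream of PGC-1 and the estrogen-related receptors, fell by 1.44, Mef2a, a muscle transcription factor, by 0.81, Twnk, the mitochondrial DNA helicase, by 0.78, and Ppara, a nuclear receptor for fatty acids, by 0.75. Pprc1, a relative of PGC-1alpha induced by serum, rose by 1.61, and Tfb1m, a methylase of mitochondrial ribosomal RNA, by 0.95. Of these 6, none passed within slide 1, where the changes had the same signs, and Mef2a alone passed with the slide as a block. After normexp background correction Ppara and Twnk were at −0.31 and −0.44 and did not pass, nor did Tfb1m at 0.70. Ppara also missed the threshold with median scaling (−0.68), and Tfb1m with quantile normalization (0.74). Esrra, Nrf1 and Gabpa, transcription factors that bind promoters of respiratory genes, did not pass, at 0.51, 0.33 and 0.27. The 2 regulators that rose, and 4 of the 5 that fell, missed the threshold without control replicate 2, without control replicate 3 and without isoproterenol replicate 3, Ppargc1a being the exception.

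**Figure D5:**
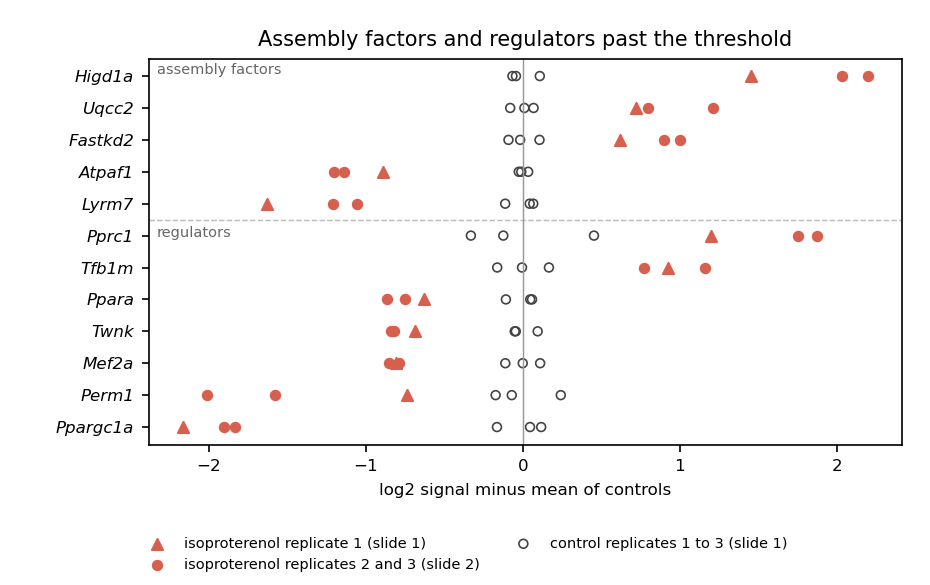
Assembly factors (above the dashed line) and regulators (below it) that passed the test over all 6 arrays, with the log2 signal on each array minus the mean of the controls on the x axis. Red triangles are isoproterenol replicate 1, red circles isoproterenol replicates 2 and 3, open circles the controls. In each of the 12 genes all 3 isoproterenol arrays lie on one side of the controls.

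Of the 31 complex I subunits none passed over all arrays or within slide 1, the median change was 0.09, and within slide 1 it was −0.18, with 27 of 31 lower. After quantile normalization 29 of the 31 were lower and 2 higher, with a median of −0.27. There 2 fell and none rose, beside 5.99% and 7.59% of all genes. Without isoproterenol replicate 1, 11 of the complex I subunits rose and 3 fell, beside 29.4% and 22.7% of all genes. In that setting treatment and slide cannot be told apart. Of 14 tricarboxylic acid cycle genes 2 fell, where 5.96% of all genes did, with a median of 0.17. Within slide 1 the median was −0.33 and none fell (2.76% of all genes), nor did any without one control, whichever was left out, or without isoproterenol replicate 3. There was 1 that fell without isoproterenol replicate 2. Without isoproterenol replicate 1 there were 7 that rose and 2 that fell, beside 29.4% and 22.7% of all genes. Of 19 fatty acid oxidation genes 13 fell, where 5.96% of all genes did, with a median of −1.17. Within slide 1 the median was −1.51. The number that fell was 7 without control replicate 2 (1.11% of all genes) and 6 without control replicate 3 (0.818%). The medians there were −1.12 and −1.07. No test of a difference between these lists was made.

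Cardiomyocyte markers were bright on every array. Their summed linear signal over 12 genes was 2748, 4345 and 4332 on isoproterenol arrays 1 to 3 and 2189 to 2737 on controls. Of these 12, 1 rose (Myh6) and none fell over all arrays. Within slide 1 and with the slide as a block none rose and 2 fell (Mybpc3 and Pln), and after quantile normalization none rose and 1 fell (Pln). The sum over 10 fibroblast markers was 133 to 178 in isoproterenol cells and 156 to 165 in controls, with 2 genes that rose and 4 that fell, and over 4 smooth muscle markers 215 to 495 against 82.8 to 148, with 2 that rose and 1 that fell. For 7 endothelial markers it was 14.3 to 15.8 against 15.2 to 17.1 and for 6 leukocyte markers 16.7 to 21.7 against 14.1 to 23.3, with 1 gene past the threshold in each. Within slide 1, 2 fibroblast markers and 1 endothelial marker fell, no smooth muscle or leukocyte marker passed, and none of these rose. For 6 skeletal muscle markers the sum was 14.5 to 17.9 against 54.6 to 57.0, nearly all from Ckm. This muscle creatine kinase, which heart muscle also makes, fell by 1.96 (limma adjusted p = 0.00237, 3.58 to 3.9 against 5.70 to 5.77). Of the others, all dimmer, Myh1 rose by 1.26 (limma adjusted p = 0.0133). Myod1, Myog and Myh2 were higher and Tnnt3 lower, and none of these passed. In such bulk samples fewer cells of a type and less RNA per cell cannot be told apart, and the part of cell mixture in the change of Cox8b was not tested.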

How the data were processed

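RNA of 6 samples was measured on one-colour (Cy3) Agilent arrays for lncRNAs and mRNAs. The authors deposited scanner files and value tables. Feature Extraction 11.0.1.1 read the images of a design annotated to rn4, per the file headers, and the scanner files hold linear intensity values, background-subtracted by that software. The deposited mRNA table holds log2 values. On slide 1 these lie within 0.00228 of quantile-normalized log2 processed intensity for 95% of rows, but within 0.454 and 0.23 on isoproterenol replicates 2 and 3. Which software made the table is not stated in the labels or headers. All columns have the same highest value, 18.2.

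The scanner files name no transcripts, so table rows were matched to probes by their values on the 4 arrays of slide 1 (20628 of 20734 rows, all members among them). All 20627 neighbouring pairs followed the order of spots. RefSeq accessions were named through the RefSeq table of GRCr8 (13956 of 14757). The 5977 rows with Ensembl identifiers stayed without a name. Positions are those of GRCr8.

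Intensities were taken as log2, less each array's 75th percentile over non-control probes. Control spots and outlier-flagged spots were left out, spots of a probe were averaged, and each gene was represented by its brightest probe. Genes well above background on at least 3 of 6 arrays were tested with limma 3.58.1 in R 4.3.3, isoproterenol minus control, with Benjamini-Hochberg adjustment over 19931 genes. No array had a saturated spot. The number of arrays limits the precision. The script was tested on simulated data with independent values, the same spread in both groups and no slide effect, unlike these arrays. Isoform ratios were compared by two-sided exact permutation (scipy 1.17.1). Slides were read from shared scan images. The normexp alternative used median signals, since the files hold no mean signal column.

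Per-array values are given for members that passed, for isoform pairs and for the highest and lowest change in each complex, with others named after their values were seen where groups did not overlap. The members, gene lists and tests were chosen with earlier results of these data known, so no list is independent evidence of its own direction. Alternatives were median scaling, scaling over probes detected on all arrays, normexp (offset 50), quantile normalization, the deposited table, other filters, slide as a block, slide 1 only, the replicate number as a block, the mean of a gene's probes, and each sample left out.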

Additional observations from a re-analysis of the deposited data

How the results depend on the processing

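No pairing of the samples by replicate number was seen. Deviations of same-numbered isoproterenol and control arrays from their group means correlated at 0.0074, 0.0524 and −0.0217. The isoproterenol arrays lay on 2 slides and the controls on 1, so these correlations cannot exclude a pairing. With the replicate number as a block 1464 of all genes passed, against 3224 without it, and among the subunits Cox8b alone fell, at −1.07 (limma adjusted p = 0.0428). The Cox8b over Cox8a difference under that pairing was −1.14 (exact permutation p = 0.25, the smallest 3 pairs allow).

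Over all genes, 1457 passed with slide as a block, 1055 within slide 1, 1398 within slide 1 after quantile normalization and 1039 with quantile normalization and slide as a block. Leaving out one array gave 369 (without control replicate 3) to 10393 (without isoproterenol replicate 1, where treatment and slide cannot be told apart), 1440 without control replicate 1, 500 without control replicate 2, 1284 without isoproterenol replicate 2 and 836 without isoproterenol replicate 3. The number of subunits that fell was 1 over all arrays (5.96% of all genes). It was 2 when scaled over probes that every array detected (9.95%) and 2 with normexp (3.76%). It was 5 with quantile normalization (5.99%), 7 in the deposited table (6.53%) and 2 with the filter on all 6 arrays (9.51%). Of the settings that join quantile normalization and slide, that with slide as a block gave 2 (2.95%). With 1 array left out, the number that fell ranged from 0 to 5. It was 0 without control replicate 2, control replicate 3 or isoproterenol replicate 3 (1.11%, 0.818% and 1.92% of all genes). It was 5 without isoproterenol replicate 1 (22.7%). The number that rose was 0 over all arrays (10.2% of all genes) and 1 (Cycs) with the filter on all 6 arrays (25%). Without isoproterenol replicate 1 it was 16 (29.4%). The median change of the subunits, 0.12, was −0.12 with scaling over detected probes. It was −0.27 with quantile normalization and in the deposited table. With slide as a block and within slide 1 it was −0.22, and in both joined settings −0.37. With one array left out it ranged from −0.02 (without isoproterenol replicate 2) to 0.31 (without isoproterenol replicate 1), with 0.05 without isoproterenol replicate 3. Median scaling and the no-filter setting gave the same counts of subunits. The no-filter setting tested the same genes. The median of all genes, 0.07, was −0.08 with quantile normalization, −0.17 when scaled over detected probes and 0.37 with normexp, where that of the subunits was −0.01.

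The changes of 12 of the 45 subunits kept their sign in all 19 settings, among them Cox8b, Sdha, Sdhb, Cycs, Cox4i1, Cox4i2 and Atp5f1e. Those of 33 changed sign in at least one. Reversals are listed below only for the isoform pairs and for the highest and lowest change in each complex. Further subunits, such as Sdhd, also reversed in these settings. With slide as a block and within slide 1 alike, the reversed changes were Atp5if1 −0.34, Cox6a2 −0.11, Cox7a2 −0.31, Cox7c −0.033, Cox8a −0.62, Sdhc −0.15 and the Cox6a2 over Cox6a1 ratio −0.19. In both joined settings they were Atp5if1 −0.53, Cox6a1 −0.062, Cox6a2 −0.25, Cox7a2 −0.50, Cox7c −0.19, Cox8a −0.84 and Sdhc −0.33. With quantile normalization, and in the deposited table, they were Cox6a1 −0.13 in each, Cox6a2 −0.093 in each, Cox7a2 −0.24 in each, Cox7c −0.029 and −0.030, Cox8a −0.52 in each and Sdhc −0.30 in each. With scaling over detected probes they were Cox6a1 −0.0032, Cox8a −0.17 and Sdhc −0.076, and with normexp Cox8a −0.067, Sdhc −0.028 and Uqcrq 0.54. Without isoproterenol replicate 2, Cox8a was at −0.16 and the Cox6a2 over Cox6a1 ratio at −0.053, the lowest values of each with one array left out. The highest, without isoproterenol replicate 1, were 0.42 and 0.17. Without isoproterenol replicate 3 Cox8a was at −0.039. The joined settings were chosen after seeing the data. The cause of these reversals was not tested. Signal over background was lowest on slide 2, which limits dim genes such as Uqcrq and Cox8c.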
